A study of Mus musculus with 6 samples.

Results

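A group of 10 genes known as targets of the liver X receptors (LXRs) and concerned with cholesterol export and lipoproteins was examined in mouse macrophages lacking retinoid X receptors (RXRs) and in wild-type macrophages. The genes were Abca1, Abcg1, Mylip, Apoe, Apoc2, Pltp, Smpdl3a, Arl4c, Lpcat3 and Tmem135, chosen by symbol, 10 of the 45193 genes in the count table. All 10 were found, and all 10 passed the filter on low counts. RNA was sequenced from bone marrow-derived macrophages, which are grown from marrow precursors with medium rich in the growth factor CSF-1. The RXRKO cells (genotype RXRafl/flLysMCre RXRb-/-, 3 libraries) had loxP-flanked Rxra alleles with Cre recombinase under the lysozyme M gene (LysMCre, the Lyz2 locus) and both copies of Rxrb inactivated. The WT cells, 3 libraries, are labelled wild type, with no floxed allele or Cre described, and the labelled strain of both groups was C57BL/6J. Both groups were cultured for 6 days, moved to serum-free medium and kept for 3 hours with DMSO alone, the solvent, and no LXR or RXR ligand was given. The labels do not give the age, sex or number of the animals.

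LXRs are nuclear receptors that sense oxysterols, the oxidized forms of cholesterol. They bind DNA as a pair with RXR at a direct repeat of the hexamer AGGTCA with a spacer. Without a ligand the pair can hold corepressors at its target genes, and with a ligand it switches them on. In macrophages the targets send cholesterol out to lipoprotein particles, limit its uptake, and reshape membrane phospholipids.

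Total counts ran from 17250051 to 25091019 in the RXRKO libraries and from 7880320 to 14957253 in the WT libraries, so depth moved with genotype. Rxrb fell to 9.27 ± 2.09 CPM (each count per 1e6 counts of its library, scaled by TMM factors) in RXRKO cells, against 66.7 ± 1.86 CPM in WT cells (SD, n = 3 each), and Lyz2 fell to 28.4 CPM in RXRKO cells, against 15260 CPM in WT cells. Rxra stood at 109 ± 4.83 CPM in RXRKO cells and 104 ± 6.7 CPM in WT cells, and counts over the whole gene do not test removal of its floxed part. Effects of RXR loss, of Cre and of the lost Lyz2 transcript cannot be told apart. All 8 macrophage markers were detected (3 rose, 2 fell and 3 did not pass), Csf1r highest at 2914 CPM in RXRKO and 2216 CPM in WT cells, and 2 of 4 erythroid markers (Hba-a1 and Hbb-bs) had 0 reads. The 8 neutrophil markers summed to 762 to 839 CPM, here without TMM scaling, in RXRKO libraries and 769 to 873 CPM in WT libraries, with 1 higher (Csf3r), 2 lower (Elane and Mpo) and 5 that did not pass. The 6 dendritic cell markers, nearly all of it Itgax, summed to 238 to 252 CPM in RXRKO and 165 to 178 CPM in WT libraries. Markers of lymphocytes summed to at most 2.2 CPM in RXRKO and 2.07 CPM in WT libraries, mast and basophil markers to at most 4.38 and stromal markers to at most 9.76 CPM in any library. Over all tested genes 9.77% rose and 9.61% fell in the edgeR test used throughout. The part of these markers in the results was not tested. Xist, the transcript of the inactive X chromosome, was at 209 to 267 CPM in RXRKO libraries and 0 reads in every WT library, and the Y-linked Ddx3y was at 49.7 to 55.4 CPM in RXRKO libraries and 101 to 112 CPM in WT libraries. The sex makeup of the cultures and genotype therefore cannot be told apart in any difference given here.

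The 10 targets did not move as a block. Abca1 and Smpdl3a rose, Abcg1, Mylip and Lpcat3 fell, and Apoe, Apoc2, Pltp, Arl4c and Tmem135 did not pass the test (edgeR quasi-likelihood test, Benjamini-Hochberg adjusted p under 0.05 over 12011 genes). Over all tested genes 19.4% passed in either direction, 9.77% as higher and 9.61% as lower. The median log2 fold change of the 10 genes was -0.09, against -0.005 for all tested genes. The RXRKO and WT values lay apart without overlap in 8 of the 10, a state reached by 36.9% of all tested genes. In bulk RNA, fewer cells expressing a gene and less RNA per cell cannot be told apart.

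**Figure D1:**
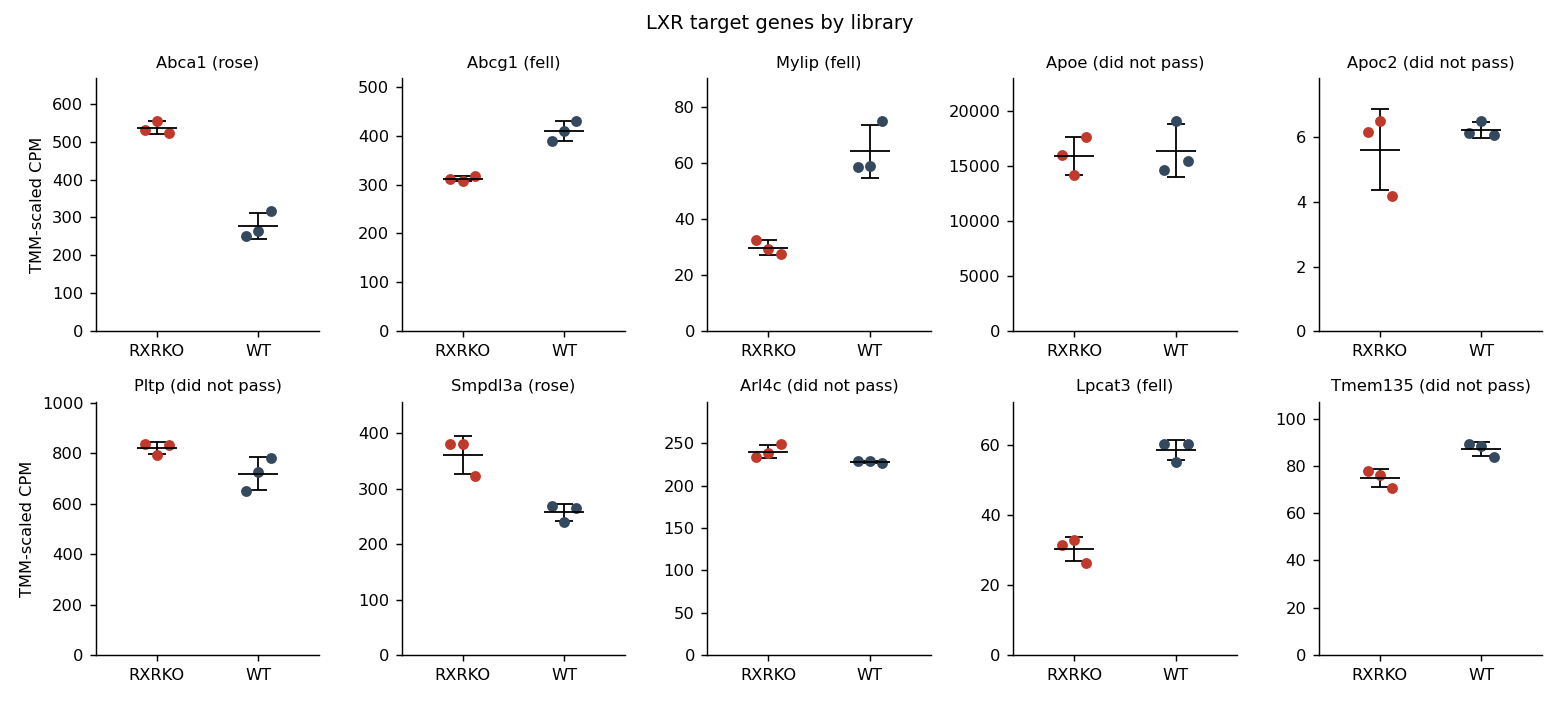
TMM-scaled CPM (vertical axes, starting at 0) of the 10 LXR target genes in each RXRKO library (red) and WT library (dark), with the mean and SD as black bars (n = 3 each). The RXRKO points of Abca1, Smpdl3a, Pltp and Arl4c lie above all WT points, and those of Abcg1, Mylip, Lpcat3 and Tmem135 lie below. Of these Pltp, Arl4c and Tmem135 did not pass the test. The RXRKO points of Apoe and Apoc2 overlap the WT points.

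The 2 exporter genes moved in opposite directions. Abca1 (ENSMUSG00000015243, chromosome 4, 53030787 to 53159895, minus strand, GRCm38) encodes the transporter that passes cholesterol and phospholipid to lipid-poor apolipoprotein A-I. It had 529, 556 and 524 CPM in RXRKO replicates 1, 2 and 3, against 251, 265 and 317 CPM in WT replicates 1, 2 and 3. Every RXRKO library was above every WT library. The log2 fold change was 0.95 (SE 0.094, adjusted p = 1.89e-05 by edgeR), a level 1.93 times that of WT. Abcg1 (ENSMUSG00000024030, chromosome 17, 31057675 to 31117988, plus strand) encodes a half-transporter that moves sterol to mature high-density lipoprotein. It had 312, 308 and 317 CPM in RXRKO replicates, against 390, 410 and 431 CPM in WT replicates. All RXRKO values lay below all WT values, and the fall was smaller than the rise of Abca1 (log2 fold change -0.39, SE 0.076, edgeR adjusted p = 0.00291).

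The ratio of Abca1 to Abcg1 reads needs no scaling between libraries. It was 1.7, 1.81 and 1.65 in RXRKO replicates and 0.644, 0.646 and 0.734 in WT replicates, and every RXRKO library was above every WT library. The log2 ratio averaged 0.78 ± 0.0672 in RXRKO and -0.571 ± 0.108 in WT libraries (SD, n = 3 each). The difference was 1.35 (exact permutation test, two-sided, p = 0.1, which is the lowest value possible with groups of 3). Abca1 was higher and Abcg1 lower in every RXRKO library than in every WT library, so this p-value was fixed in advance. Abcg1 lies 2.91 Mb from Rxrb, the inactivated gene on the same chromosome. In the 10 Mb to either side of Rxrb 24.7% of 295 tested genes passed the test, against 19.4% of all tested genes, and the part of this linkage in the Abcg1 difference was not tested. None of the other 9 genes lies within 10 Mb of Rxra, Rxrb or Lyz2.

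The Abca1 promoter is shown because this gene rose most of the 10 and its window holds a sequence near the LXR element. It is the 250 bases before the RefSeq start (GRCm38.p6, chr4:53159896-53160145, minus strand, written 5′ to 3′ along the gene), with the closest match to the repeat (AGGTCA, then 4 letters of any kind, then AGGTCA) and a TATAAA in capitals.
Abca1: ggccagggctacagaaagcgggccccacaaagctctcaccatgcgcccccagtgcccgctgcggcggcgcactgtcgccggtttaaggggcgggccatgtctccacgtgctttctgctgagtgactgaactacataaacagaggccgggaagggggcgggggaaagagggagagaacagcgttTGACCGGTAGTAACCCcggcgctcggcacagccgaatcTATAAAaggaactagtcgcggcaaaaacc
The match lies on the opposite strand, ends 51 bases before the start, and differs from the motif at 3 of its 12 fixed letters. Read in the motif's direction, with letters equal to the motif's fixed letters in capitals, it sits beside the only other match this close among the 8 genes with a RefSeq window, that of Arl4c.
Abca1 match: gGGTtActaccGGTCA
Arl4c match: gGGTCAggcggGGTCt
Matches with at most 3 differing letters on either strand were in 18.5% of all 32851 promoter windows, so such a match is common. The closest matches in the windows of Apoe, Apoc2, Pltp, Lpcat3, Mylip and Tmem135 differed at 4 to 6 letters. Of all windows 99.5% held one with at most 5. Sequence outside these 250 bases was not searched. Abcg1 and Smpdl3a have no entry in the RefSeq promoter table used.

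The genes for lipoprotein particle proteins did not pass the test. Apoe (ENSMUSG00000002985, chromosome 7, 19696109 to 19699188, minus strand) encodes the apolipoprotein that macrophages secrete and that lipoprotein receptors bind. It had 16040, 14180 and 17670 CPM in RXRKO replicates, against 14640, 19170 and 15480 CPM in WT replicates. The groups overlapped (log2 fold change -0.04, 95% interval -0.28 to 0.20, edgeR adjusted p = 0.837). Apoe alone took 1.42% to 1.76% of all counts in RXRKO libraries and 1.46% to 1.86% in WT libraries, the most of the 10 genes.

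Apoc2 (ENSMUSG00000002992, chromosome 7, 19671579 to 19677941, minus strand), the cofactor of lipoprotein lipase, lies in the same gene cluster and had few reads. It had 106, 164 and 77 reads in RXRKO replicates and 59, 50 and 93 reads in WT replicates. At 6.17, 6.51 and 4.18 CPM in RXRKO replicates and 6.12, 6.52 and 6.07 CPM in WT replicates the groups overlapped, with RXRKO replicate 3 the lowest. The log2 fold change was -0.14 with a 95% interval of -0.56 to 0.28 (edgeR adjusted p = 0.669). Its exons share 646 bases with a predicted gene, Gm44805, which has no row in the count table. The other apolipoprotein genes of the cluster were near 0, Apoc1 with 9 reads in all RXRKO and 6 in all WT libraries and Apoc4 with 2 and 0 reads in RXRKO and WT libraries.

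Pltp (ENSMUSG00000017754, chromosome 2, 164839518 to 164857711, minus strand) encodes phospholipid transfer protein, which moves phospholipid between lipoproteins. It had 836, 795 and 832 CPM in RXRKO replicates, against 652, 726 and 780 CPM in WT replicates. The RXRKO values lay above all WT values, by little at the nearest pair. The log2 fold change was 0.19 (95% interval 0.01 to 0.37) and its edgeR adjusted p of 0.136 missed the threshold, which it passed without WT replicate 3 (log2 fold change 0.25, edgeR adjusted p = 0.0478). Its exons share 495 bases with Ctsa on the other strand, which stood at 1246 ± 123 CPM in RXRKO and 1255 ± 113 CPM in WT cells (SD, n = 3 each).

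Mylip had the largest fall of the 10 genes. Mylip (ENSMUSG00000038175, chromosome 13, 45389742 to 45412022, plus strand), also called Idol, encodes the ubiquitin ligase that marks lipoprotein receptors for degradation. It had 32.6, 29.3 and 27.4 CPM in RXRKO replicates, against 58.5, 58.7 and 75 CPM in WT replicates. All RXRKO libraries lay below all WT libraries, and WT replicate 3 stood above the other two WT libraries. The log2 fold change was -1.11 (SE 0.117, edgeR adjusted p = 3.05e-05), a level 46.2% of WT. Its promoter window, the 250 bases before the RefSeq start (GRCm38.p6, chr13:45389492-45389741, plus strand), is shown beside that of Abca1 because these 2 were the ones of the 8 windows that held a TATAAA, here in capitals, while one gene rose and the other fell.
Mylip: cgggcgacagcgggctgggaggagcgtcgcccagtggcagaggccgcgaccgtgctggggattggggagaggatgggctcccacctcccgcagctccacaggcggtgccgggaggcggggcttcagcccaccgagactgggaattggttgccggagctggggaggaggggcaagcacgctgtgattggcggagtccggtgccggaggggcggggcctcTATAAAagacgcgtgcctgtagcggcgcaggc
The TATAAA begins 32 bases before the start in Mylip and 29 bases before it in Abca1, on the gene's own strand in both, and 12.4% of all windows held one on either strand. The Mylip window had 71.2% G and C and the Abca1 window 61.6%, against a median of 52.4% over all windows.

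Transcripts of lipoprotein receptors and their partners were read beside Mylip. On a list of 13 such genes 2 rose and 2 fell, 6 missed the threshold and 3 had too few reads. The median log2 fold change of the 10 tested was 0.057. Over all tested genes 9.77% rose and 9.61% fell. Lrp1, a large receptor for apolipoprotein E and proteases, had 3368, 3513 and 3406 CPM in RXRKO replicates, against 2045, 2502 and 2838 CPM in WT replicates. It rose (log2 fold change 0.48, SE 0.106), and so did Sorl1, a sorting receptor (0.37, SE 0.094). Sort1, which encodes the sorting receptor sortilin, fell (-1.32, SE 0.088), as did the fatty acid and oxidized lipoprotein receptor gene Cd36 (-0.78, SE 0.091). Leaving out WT replicate 1, WT replicate 2 or RXRKO replicate 1 ended the Sorl1 call, and neither Sorl1 nor Lrp1 passed with limma on the authors' log2 values. Vldlr had 14 reads in all RXRKO and 8 in all WT libraries and was not tested.

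Lpcat3 was the one of the 4 Lpcat genes that fell. Lpcat3 (ENSMUSG00000004270, chromosome 6, 124663027 to 124704418, plus strand) encodes the enzyme that puts polyunsaturated fatty acids into membrane phospholipids. It had 31.5, 32.8 and 26.3 CPM in RXRKO replicates, against 60.2, 55.2 and 60.2 CPM in WT replicates. The groups were far apart, at -0.96 on the log2 scale (SE 0.104, adjusted p = 4.03e-05 by edgeR) and a level 51.5% of WT. Lpcat2, which makes platelet-activating factor and other phosphatidylcholines, rose to 56.8 ± 3.17 CPM in RXRKO cells, against 42.5 ± 3.64 CPM in WT cells (log2 fold change 0.42, SE 0.095, edgeR adjusted p = 0.0083), a call lost without WT replicate 1 or RXRKO replicate 1. Lpcat1 (0.07, edgeR adjusted p = 0.593) and Lpcat4 (0.08, edgeR adjusted p = 0.723) did not pass. Per length of exon, Lpcat3 made up 21%, 22% and 18.4% of the 4 Lpcat genes' summed level in RXRKO replicates. In WT replicates it made up 38.8%, 34.1% and 38% (exact permutation test, two-sided, p = 0.1, the lowest value possible with groups of 3). This share was computed after the values of these genes were seen. Lpcat3 was lower and Lpcat2 higher in every RXRKO library than in every WT library, so the p-value of the share adds no support. The exons of Lpcat3 share 334 bases with Emg1 on the other strand, and Emg1 also fell, to 41.9 ± 2.21 CPM in RXRKO against 53.8 ± 8.22 CPM in WT cells (log2 fold change -0.35, edgeR adjusted p = 0.047), so reads of the shared stretch are uncertain.

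**Figure D2:**
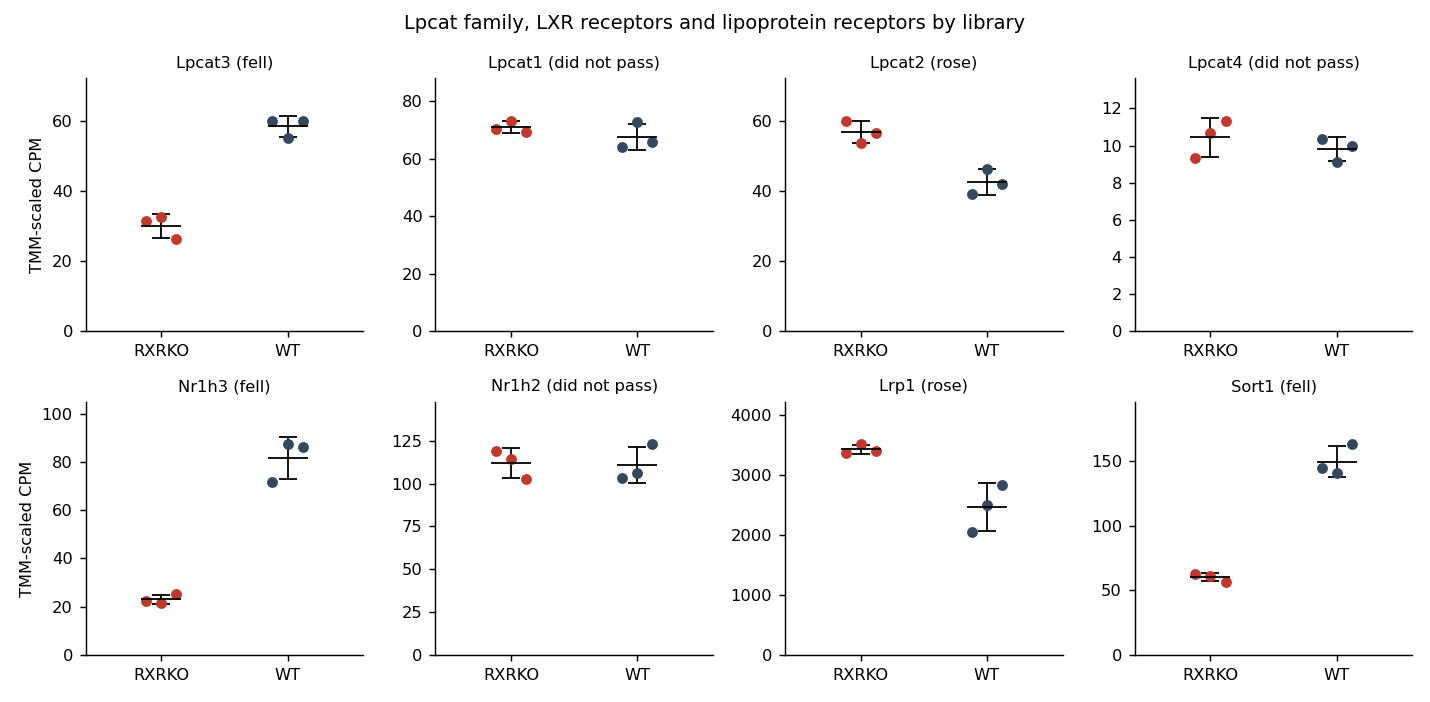
TMM-scaled CPM (vertical axes, starting at 0) of the 4 Lpcat genes, the 2 LXR genes, Lrp1 and Sort1 in each RXRKO library (red) and WT library (dark), with mean and SD (n = 3 each). Lpcat3, Nr1h3 and Sort1 lie lower in RXRKO cells and Lpcat2 and Lrp1 higher, while Lpcat1, Lpcat4 and Nr1h2 overlap.

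Smpdl3a was the other gene that rose. Smpdl3a (ENSMUSG00000019872, chromosome 10, 57794335 to 57811830, plus strand) encodes a secreted phosphodiesterase related to acid sphingomyelinase. It had 380, 380 and 322 CPM in RXRKO replicates, against 268, 240 and 265 CPM in WT replicates. RXRKO replicate 3 was the lowest of its group and still above all WT libraries (log2 fold change 0.49, SE 0.089, edgeR adjusted p = 0.00218). Its relatives Smpdl3b (log2 fold change -0.20, edgeR adjusted p = 0.484) and Smpd1, the acid sphingomyelinase gene (-0.16, edgeR adjusted p = 0.287), did not pass.

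Arl4c and Tmem135 did not pass the test. Arl4c (ENSMUSG00000049866, chromosome 1, 88673125 to 88702221, minus strand) encodes a small GTPase with a part in vesicle traffic. It had 233, 238 and 249 CPM in RXRKO replicates, against 229, 229 and 227 CPM in WT replicates. The groups lay apart by a few CPM, with a log2 fold change of 0.07 (95% interval -0.09 to 0.23, edgeR adjusted p = 0.525). Its relatives Arl4a (0.09, edgeR adjusted p = 0.744) and Arl4d (-0.07, edgeR adjusted p = 0.928) did not pass either. Tmem135 (ENSMUSG00000039428, chromosome 7, 89139714 to 89404222, minus strand) encodes a multipass membrane protein tied to mitochondria and peroxisomes. It had 77.8, 76.3 and 70.6 CPM in RXRKO replicates, against 89.1, 88.3 and 83.9 CPM in WT replicates. All RXRKO values were below all WT values, but the log2 fold change of -0.22 (95% interval -0.40 to -0.04) missed the threshold after adjustment (edgeR adjusted p = 0.0856).

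**Figure D3:**
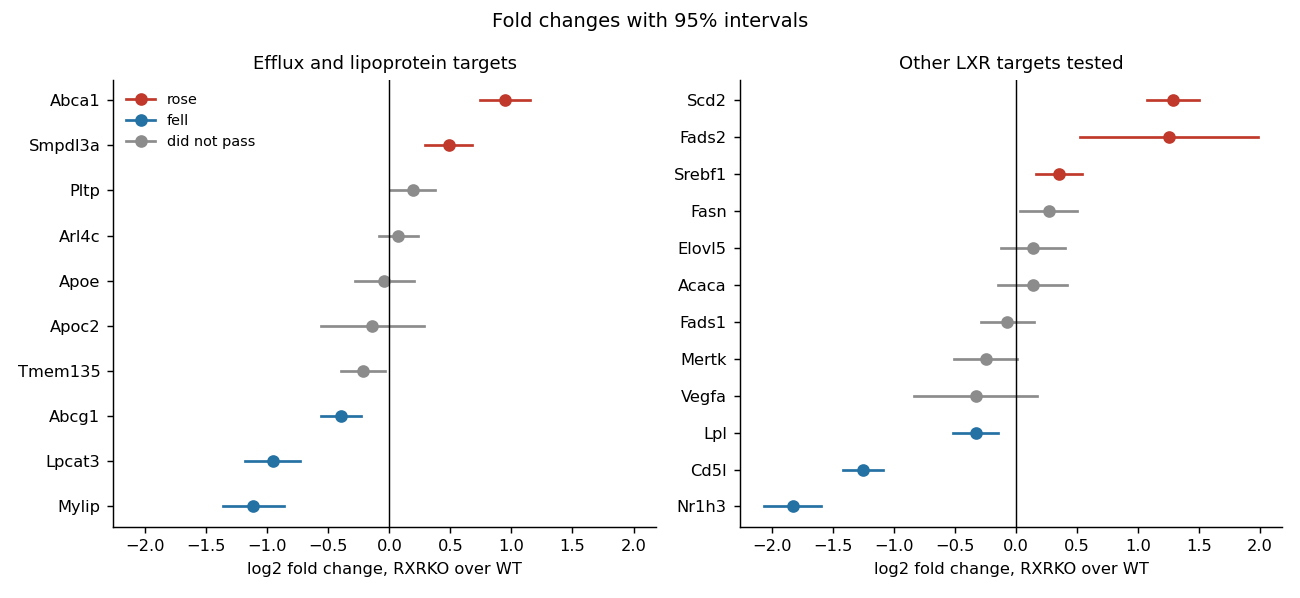
Log2 fold change of RXRKO over WT (horizontal axis) with 95% intervals from the edgeR fit for the 10 efflux and lipoprotein targets (left) and the 12 tested genes of the list of other LXR targets (right). Red genes rose, blue genes fell and grey genes did not pass. Both panels hold genes on either side of 0, from Mylip at -1.11 to Abca1 at 0.95 on the left and from Nr1h3 at -1.83 to Scd2 at 1.29 on the right.

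Levels of different genes were compared as CPM per kilobase of exon. Apoe led in both genotypes at 7470 ± 817 in RXRKO and 7690 ± 1130 in WT cells, followed by Pltp at 320 ± 8.83 in RXRKO and 281 ± 25.1 in WT cells and Smpdl3a at 175 ± 16.2 in RXRKO and 125 ± 7.54 in WT cells (SD, n = 3 each). No values of these 3 genes overlapped within a genotype. Below them the order differed between genotypes. In RXRKO cells Abca1 came next at 51.7 ± 1.65, above Arl4c at 43.7 ± 1.45 and Abcg1 at 42.8 ± 0.685, whose ranges overlapped. In WT cells Abcg1 came next at 56.2 ± 2.85, above Arl4c at 41.5 ± 0.182 and Abca1 at 26.8 ± 3.33, with no overlap among them. In RXRKO cells Tmem135, Lpcat3 and Mylip then stood between 9.21 and 9.89, each range overlapping the next. In WT cells Mylip (19.8 ± 2.93) and Lpcat3 (17.9 ± 0.888) overlapped, and both were above Tmem135 (11.5 ± 0.37). Apoc2 was the lowest in both, at 6.91 ± 1.54 in RXRKO and 7.67 ± 0.302 in WT cells.

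**Figure D4:**
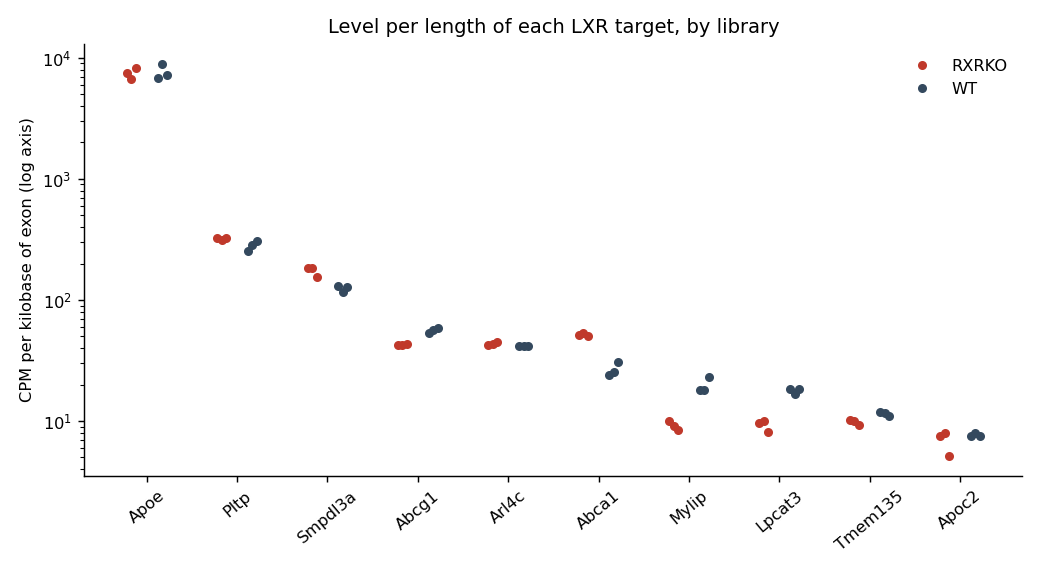
Level per length (CPM per kilobase of exon, log axis) of the 10 genes in each RXRKO library (red) and WT library (dark), ordered by the WT mean. Apoe stands apart at the top, and Abca1 is above Abcg1 in RXRKO libraries and below it in WT libraries.

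Of the receptors that act on these genes, Nr1h3, which encodes LXR alpha, fell. It had 22.3, 21.6 and 25.3 CPM in RXRKO replicates, against 71.8, 87.4 and 86.1 CPM in WT replicates (log2 fold change -1.83, SE 0.107, edgeR adjusted p = 2.72e-07). Nr1h2, which encodes LXR beta, stood at 112 ± 8.64 CPM in RXRKO and 111 ± 10.6 CPM in WT cells (log2 fold change 0.01, SE 0.094, edgeR adjusted p = 0.942). Per kilobase of exon, Nr1h3 stood at 9.16 ± 0.776 CPM and Nr1h2 at 33.4 ± 2.57 CPM in RXRKO cells, and at 32.5 ± 3.44 and 33.0 ± 3.15 CPM in WT cells. Rxrg had 5 reads in the RXRKO libraries together and 0 in the WT libraries.

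Other known LXR targets, among them genes of fatty acid synthesis and uptake, were also split. Of 20 on the list, which includes Nr1h3, 12 had enough reads. Of these, 3 rose and 3 fell, and the median log2 fold change was 0.034. With Nr1h3 left out, 3 of 11 rose and 2 fell, and the median was 0.139. Over all tested genes 9.77% rose and 9.61% fell. Scd2, a fatty acid desaturase gene, rose to 70.6 ± 1.64 CPM in RXRKO cells, against 28.9 ± 3.03 CPM in WT cells (1.29, SE 0.098). Srebf1, which encodes the main activator of fatty acid synthesis, rose (0.35, SE 0.088, edgeR adjusted p = 0.0138), and so did the desaturase gene Fads2 (1.25, SE 0.337, edgeR adjusted p = 0.0205) on 121 reads in RXRKO and 27 in WT libraries. Beside Nr1h3, Cd5l, a secreted inhibitor of apoptosis, fell (-1.25, SE 0.075), and so did Lpl, the lipoprotein lipase gene, at 8944 ± 349 CPM in RXRKO and 11240 ± 1059 CPM in WT cells (-0.33, SE 0.086, edgeR adjusted p = 0.0179). The calls of Srebf1, Fads2 and Lpl were lost without WT replicate 1 or without RXRKO replicate 1, and in each of these settings 1 gene of the list, Scd2, rose. The Fads2 call was also lost without WT replicate 3 and with counts thinned to the depth of the smallest library (log2 fold change 0.71, edgeR adjusted p = 0.249), and those of Srebf1 and Lpl with limma on the authors' log2 values (adjusted p = 0.0673 for Srebf1 and 0.0877 for Lpl). Scd1, Abcg4, Abcg5, Abcg8 and Apoc4 were among the 8 genes with too few reads to test.

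Other genes of cholesterol export, storage and transport went both ways. Of 22 listed, 19 had enough reads, 3 of them rose and 2 fell, and the median log2 fold change was 0.025. For this and the following lists, the shares over all tested genes were 9.77% higher and 9.61% lower. Abca8b (1.57, SE 0.195), Abca5 (1.42, SE 0.277) and Abca2 (0.47, SE 0.13), all ABC transporter genes of the same subfamily as Abca1, were those that rose, the first 2 from low levels of 2.51 and 2.04 CPM in WT cells. The Abca2 call ended when WT replicate 1 or 2, or RXRKO replicate 1 or 2, was left out, and with limma on the authors' log2 values (adjusted p = 0.0995). Abca5 had 50 reads in WT replicate 3 and 15 and 10 reads in WT replicates 1 and 2, and its log2 fold change was 2.03 without WT replicate 3. Cav1, the caveolin gene, fell (-1.11, SE 0.195), as did Cd36. Of the 22 genes related to the 10 by family or by name only and with a row in the count table, 14 had enough reads. Of these, 3 rose (Abca3, Lpcat2 and Abca2) and 1 fell. Abca3, a lipid transporter gene best known from lung surfactant, rose to 114 ± 4.86 CPM in RXRKO cells, against 71.2 ± 15.9 CPM in WT cells (0.67, SE 0.127). Abcg3 fell to 3.55 ± 0.414 CPM in RXRKO cells, against 11.7 ± 1.01 CPM in WT cells (-1.72, SE 0.163). Without WT replicate 1 or without RXRKO replicate 1, 1 gene of this list of related genes rose. Of 20 sterol synthesis genes 4 rose and 16 did not pass, with a median log2 fold change of 0.20. Insig1, whose protein holds back sterol synthesis when sterol is plentiful, was the one with the smallest adjusted p, at 47.5 ± 4.34 CPM in RXRKO cells and 29.6 ± 2.01 CPM in WT cells (SD, n = 3 each; log2 fold change 0.68, SE 0.104, edgeR adjusted p = 0.000567). Without RXRKO replicate 2, 2 genes of this list rose.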

How the data were processed

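Polyadenylated RNA of 3 RXRKO and 3 WT cultures was sequenced single-end (100 ng of total RNA per library, NEBNext Ultra II preparation), per the labels' protocols. TopHat2 2.0.7, DESeq and build mm10 (GRCm38) are named per the submitters' processing notes. For the counting program, annotation release and strand setting, the sources used here give nothing. The authors deposited raw counts per Ensembl gene and a table of log2 normalized values, in which each column equals log2 of a scaled count. All columns of samples were used.

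The count test was edgeR 4.0.16 under R 4.3.3 (robust quasi-likelihood test, TMM factors, filterByExpr (minimum count 10, total 15), genotype only, 12011 genes, Benjamini-Hochberg threshold 0.05). The SE is the absolute log2 fold change over the square root of F, and intervals use the same SE, so both restate the test. Symbols were matched for 45106 of 45193 genes. Positions and union exon lengths came from GENCODE M21 (GRCm38), promoters from RefSeq (GRCm38.p6), of which 8 of 10 genes had a window. Motifs were sought on both strands of the 250 bases before each start. The labels call replicates biological without naming animals or saying whether they were pooled. Each p-value therefore reflects only the variation among these 6 libraries, which may not be variation between animals.

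The genes, lists and tests were chosen with earlier results of these data known, so counts over them are descriptions. Beside the 10 targets, the receptor genes and Lyz2, up to 4 genes that rose and 4 that fell with the smallest adjusted p were named per list. Tested genes related to the 10 by family or name were named as well. Untested genes, Ctsa, Emg1, Csf3r, Elane, Mpo, Xist and Ddx3y were named after their values were seen. Alternatives were RLE and upper-quartile factors, no filter, a CPM filter (1 or more in 3 libraries), DESeq2 1.42.0, limma-voom (limma 3.58.1), limma on log2(linear value + 1) of the authors' table, the replicate number as a block, thinning to 7880320 counts, and leaving out each library. Some genes of these lists are not reported here and are left out of the counts.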

Additional observations from a re-analysis of the deposited data

How the results depend on the processing

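The 2 rises and 3 falls among the 10 targets kept their direction and their side of the threshold under all 15 alternatives, with highest adjusted p of 0.00476 for Abca1 and Lpcat3, 0.00552 for Mylip, 0.0302 for Abcg1 and 0.0326 for Smpdl3a. Of 150 comparisons of a target with an alternative 145 kept both, 4 reversed direction, and 1 came to pass the threshold, Pltp without WT replicate 3. The reversals were Apoc2 with thinned counts (0.137) or without RXRKO replicate 3, and Apoe without WT replicate 2 or without RXRKO replicate 2. With a library left out Apoc2 ran from -0.27 to 0.032 and Apoe from -0.121 to 0.082. The receptor gene Nr1h2, outside the 10 targets, ran from -0.037 to 0.092 and was also reversed with thinned counts (-0.035). Leaving out single libraries gave 2 to 3 targets that rose and 3 that fell, and a difference between RXRKO and WT libraries in the log2 Abca1 to Abcg1 ratio from 1.31 to 1.41. It gave 1 to 4 other LXR targets that rose and 2 to 3 that fell, and, over all genes, 667 to 1278 higher and 619 to 1329 lower. The fewest were called without WT replicate 1 (667 higher, 619 lower) and without RXRKO replicate 1 (697 higher, 686 lower). Limma on the authors' log2 values called 779 genes higher and 649 lower. Same-numbered libraries did not vary together (correlations 0.091, -0.404 and -0.343 for numbers 1, 2 and 3). Pairs with different numbers ran from -0.181 (RXRKO replicate 1 with WT replicate 2) to 0.441 (RXRKO replicate 3 with WT replicate 2). The replicate block called 709 genes higher, 666 lower and 1 other LXR target higher, and changed no call among the 10 targets. Of the other genes named, Srebf1, Fads2, Lpl, Sorl1 and Abca2 did not pass with it (adjusted p from 0.0545 to 0.0659). Low read numbers limit Apoc2, Fads2, Arl4d and the untested genes, and reads of overlapping genes could not be separated.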
